A study of Mus musculus with 4 samples.

Results

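The library labelled 16 h of lipopolysaccharide (LPS) was set against the library labelled 8 h, to ask which transcripts separated these labels and whether they belonged to 1 cell type. The genes described are those that reached 1 CPM (counts per 1000000 reads, on scaled library totals) in either library, which was 11445 of the 39056 genes in the deposited table. Both libraries were close to each other. By a rule of size, 19 genes were higher at 16 h (0.166% of measured genes) and 9 were lower (0.0786%), where the rule asks for a scaled fold of at least 2 with a 95% counting interval beyond 1, in a gene that reaches 1 CPM. The largest ratios were those of Mmp12 and Cd36, genes known from macrophages, with Mmp12 at 0.418 CPM at 8 h and 4.87 CPM at 16 h. Most genes of the macrophage list did not move with them. A second group was made of small differences in well expressed genes, with more short transcripts on the higher side and more long ones on the lower side.

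The series holds 4 libraries of polyadenylated RNA, 1 for each label: no LPS, and 8, 16 and 20 h of LPS at 10 mg/kg given into the peritoneum. All were taken from lungs of S1PR1-GFP reporter mice, in which green fluorescent protein marks cells that express the sphingosine-1-phosphate receptor S1PR1. The sort kept GFP-positive cells that carried CD31, found on endothelium, and lacked CD45, found on leukocytes. The labels give no age or sex, do not describe how the reporter was built, and do not say how many animals stand behind a library. With 1 library a side there was no replicate check, no test of a condition and no p-value. A direction such as "higher at 16 h" is a direction between these columns, and every interval covers counting error only, since the reads carry no molecular identifiers.

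LPS is a component of the outer membrane of Gram-negative bacteria that is sensed through Toll-like receptor 4. In the injured lung it activates the endothelium, and monocytes enter and become macrophages next to the resident macrophages of the airspace. Macrophages are recognised by the adhesion receptor F4/80 (Adgre1), the receptor for macrophage colony-stimulating factor (Csf1r), phagocyte oxidase (Cybb), complement C1q and the lysosomal proteins CD68 and lysozyme, and they degrade elastin with a dedicated metalloproteinase, macrophage elastase (Mmp12). Several of these genes are also used by other cells, so no single one of them names a cell type.

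The count totals were 28905776 reads at 8 h and 27843147 at 16 h, and 0 reads allow a level of up to 0.108 CPM at 16 h and 0.104 CPM at 8 h (3 reads). Many defining transcripts of the sorted cell type were close to absent in both libraries. Pecam1, which encodes CD31, had 2 reads in each, Cdh5 (VE-cadherin) had 6 in each, and Kdr, the main VEGF receptor, had 12 at 8 h and 9 at 16 h. Of 24 endothelial genes 17 lay under 1 CPM and 7 were measured, and none of the 7 had a 95% interval that excluded 1. The measured ones include genes that other cells also use: the TGF-beta co-receptor gene Eng stood at 54.1 and 57.2 CPM, the calcitonin receptor-like gene Calcrl at 50.2 and 48.8 CPM, and the VEGF receptor gene Flt1 at 27.3 and 28.3 CPM. S1pr1 had 87 reads at 8 h and 79 at 16 h, a fold of 0.941 (0.685 to 1.29). Ptprc, which encodes CD45, had 37 and 31 reads. Transcripts known from mesenchymal cells were mixed. Prrx1, a mesenchymal transcription factor, stood at 209 and 213 CPM and the collagen gene Col3a1 at 81.8 and 83.2 CPM, while Col1a1 had 3 and 4 reads and Col1a2 0 and 1, and 9 of 18 fibroblast genes lay under 1 CPM. Vim, an intermediate filament gene, was slightly higher, at 2760 and 2871 CPM (1.04-fold, 1.03 to 1.05). Whether the counts stem from the sorted population was not tested.

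The closeness of these libraries was first measured against counting error. For 10.8% of measured genes the 95% interval of the fold excluded 1 (617 higher, 5.39%, and 619 lower, 5.41%), where counting error alone leaves at most about 5%. With the interval at an error rate of 0.1%, 144 genes (1.26%) lay beyond it, 88 higher (0.769%) and 56 lower (0.489%). These 144 are called genes beyond counting error below. The mean squared deviation per gene, scaled so that counting error alone gives 1, was 1.65. Among 2612 genes with a mean of at least 100 CPM, the variation left after counting error was 1.32% per library. The labels do not say whether the libraries came from separate animals, from pools or from a split of 1 preparation, so what this spread spans cannot be told apart. Of all measured genes 81.8% lay within 1.1-fold, and the median log2 ratio was 0.00.

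No other pair of libraries was as close. The same variation was 17.3% between 8 h and no LPS, 17.4% between 16 h and no LPS, 17.6% between 20 h and 8 h, and 17.5% between 20 h and 16 h. The pair of 20 h and no LPS, which shares no library with the pair described here, stood between at 4.68%. The rule of size called 8.42% of genes between 8 h and no LPS, 8.34% between 16 h and no LPS, 8.85% between 20 h and 8 h, 8.56% between 20 h and 16 h, and 0.667% between 20 h and no LPS, against 0.245% between 16 h and 8 h. In the same order, 55.3%, 55.7%, 56.1%, 55.9% and 10.7% of genes lay beyond the interval with an error rate of 0.1%, against 1.26%. The 4 pairs with large variation share their libraries with each other, so they are not independent. The plot of variation by pair shows the step.

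**Figure D1:**
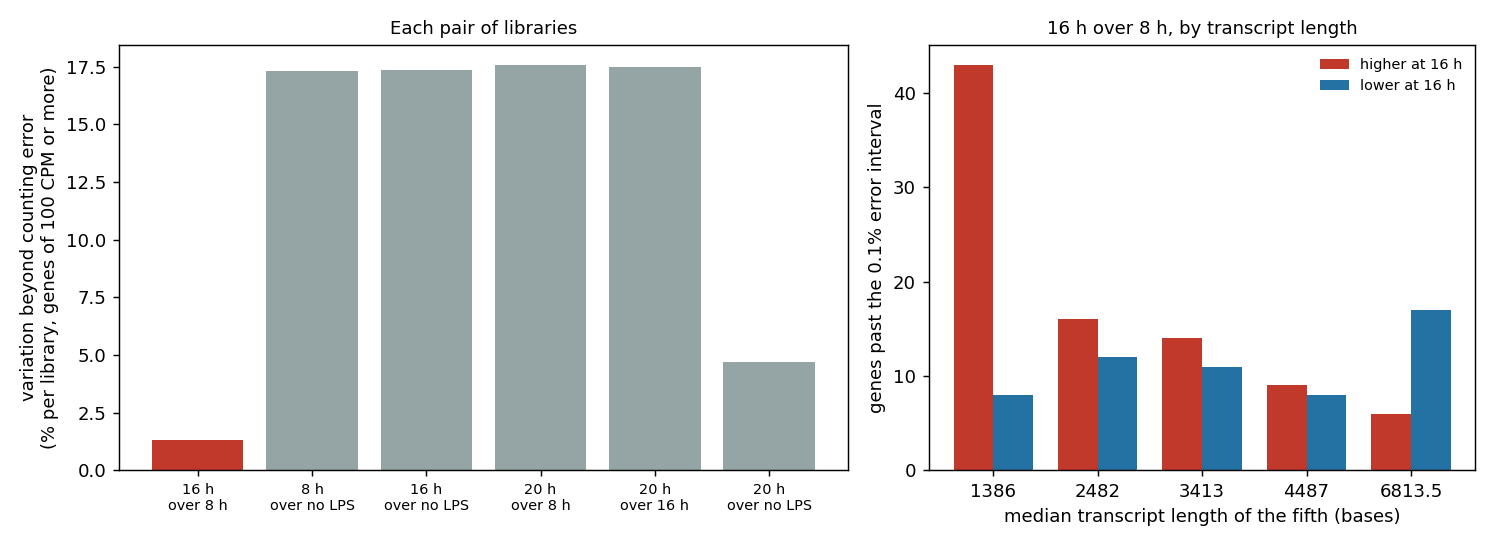
Left, the variation beyond counting error in each pair of libraries (percent per library, genes with a mean of 100 CPM or more), with the pair of 16 h and 8 h in red at 1.32% and the other pairs in grey between 4.68% and 17.6%. Right, the number of genes beyond counting error that were higher (red) or lower (blue) at 16 h in 5 equal classes of measured genes by transcript length, from 43 higher and 8 lower in the shortest class to 6 higher and 17 lower in the longest.

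The genes called by the rule of size were all scarce. The highest mean level among the 28 was 2.65 CPM, and between 28 and 135 reads stood behind the higher library of the 19 on the higher side. Only 4 of the 28 were also beyond counting error at the stricter rate: Mmp12, Cd36, Tnfrsf1b and Adgre1, all higher at 16 h. On the lower side every gene had under 50 reads in the higher library and none passed the stricter rate.

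Mmp12 (chromosome 9, 7344381 to 7369499, plus strand, mm10) encodes macrophage elastase, a secreted metalloproteinase. It had 12 reads at 8 h and 135 at 16 h, beside 6 with no LPS and 80 at 20 h. The fold of 16 h over 8 h was 11.7 (95% counting interval 6.46 to 23.1). The libraries labelled 16 h and 20 h were high and the other pair low. The gene overlaps Mmp1b on the opposite strand, which had 1 read in each of the LPS libraries.

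Cd36 (chromosome 5, 17781690 to 17888801, minus strand) encodes a scavenger receptor for oxidised lipoproteins and fatty acids that is found on macrophages, capillary endothelium and adipocytes. It had 24 reads at 8 h and 110 at 16 h, beside 15 with no LPS and 59 at 20 h, and the fold was 4.75 (3.03 to 7.73). The order of the 4 libraries was the same as for Mmp12.

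Adgre1 (chromosome 17, 57358691 to 57483527, plus strand), the gene of F4/80, had 31 reads at 8 h and 77 at 16 h, with 12 and 24 in the libraries labelled no LPS and 20 h. The fold was 2.57 (1.68 to 4.04), at 1.08 and 2.78 CPM. Here the library labelled 16 h stood alone, since the level at 20 h (0.867 CPM) lay below that at 8 h.

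Tnfrsf1b (chromosome 4, 145213463 to 145246870, minus strand) encodes TNF receptor 2, which is carried by myeloid and lymphoid cells and by activated endothelium. It had 12 reads at 8 h and 42 at 16 h, with 20 in the library labelled no LPS and 22 at 20 h. The fold was 3.63 (1.87 to 7.57), and 16 h was again the highest of the 4.

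Cybb (chromosome X, 9435252 to 9487771, minus strand), the catalytic subunit of the phagocyte NADPH oxidase, was under the fold of 2 but beyond counting error. It had 57 reads at 8 h and 98 at 16 h, with 57 and 95 at no LPS and 20 h, and a fold of 1.78 (1.27 to 2.51). The libraries thus formed pairs, with 8 h level with no LPS and 16 h level with 20 h.

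The sequence before the start was looked up for 6 genes known from myeloid cells, some of them known targets of myeloid and AP-1 factors. These were not the 6 largest ratios, since other genes had larger ratios than Csf2rb and Cybb. They were chosen for being higher at 16 h, and their order over the 4 libraries differed. RefSeq promoters (build GRCm38.p6) matched 4 of the 6 genes looked up, Mmp12 with a pair of starts, and Adgre1 and Csf2rb had no match. Each line gives the 250 bases before a start, 5′ to 3′ on the strand of the gene. Capitals mark the core GAGGAA, read by ETS factors such as PU.1, and the AP-1 site TGANTCA, both searched on both strands and not overlapping in these windows.
Mmp12, upstream start, chr9:7344147-7344396, plus strand: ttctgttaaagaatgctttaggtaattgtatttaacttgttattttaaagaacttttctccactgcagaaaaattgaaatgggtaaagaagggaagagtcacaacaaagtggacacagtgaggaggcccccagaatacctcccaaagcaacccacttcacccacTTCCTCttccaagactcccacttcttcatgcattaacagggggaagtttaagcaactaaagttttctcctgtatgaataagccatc
Mmp12, downstream start, chr9:7347124-7347373, plus strand: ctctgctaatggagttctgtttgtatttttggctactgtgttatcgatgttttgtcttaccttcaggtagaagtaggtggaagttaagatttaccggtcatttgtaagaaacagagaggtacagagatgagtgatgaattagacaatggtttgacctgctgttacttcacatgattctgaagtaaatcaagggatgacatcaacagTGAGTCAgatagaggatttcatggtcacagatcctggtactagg
Cd36, chr5:17835897-17836146, minus strand: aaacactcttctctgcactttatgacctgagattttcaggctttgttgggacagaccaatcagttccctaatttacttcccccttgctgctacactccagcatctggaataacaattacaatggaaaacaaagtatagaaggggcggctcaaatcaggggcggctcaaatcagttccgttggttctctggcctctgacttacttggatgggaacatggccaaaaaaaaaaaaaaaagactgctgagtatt
Tnfrsf1b, chr4:145246871-145247120, minus strand: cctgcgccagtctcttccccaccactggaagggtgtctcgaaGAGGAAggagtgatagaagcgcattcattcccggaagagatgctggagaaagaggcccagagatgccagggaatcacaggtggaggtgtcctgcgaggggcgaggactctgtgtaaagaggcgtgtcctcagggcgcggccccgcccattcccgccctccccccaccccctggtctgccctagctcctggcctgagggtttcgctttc
Cybb, chrX:9469325-9469574, minus strand: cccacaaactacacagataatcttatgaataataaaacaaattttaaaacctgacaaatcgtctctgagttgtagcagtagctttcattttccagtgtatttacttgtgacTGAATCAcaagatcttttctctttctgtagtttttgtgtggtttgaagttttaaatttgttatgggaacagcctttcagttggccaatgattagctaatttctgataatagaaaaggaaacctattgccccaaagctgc

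The upstream Mmp12 window held TTCCTC, which is GAGGAA on the opposite strand, from 86 bases before its start. The downstream window held TGAGTCA from 44 bases before its start. Tnfrsf1b held GAGGAA from 208 bases before its start, Cybb held TGAATCA from 139 bases before, and the Cd36 window held neither. Of 32851 promoter windows of the same length, 23.3% held GAGGAA on either strand and 6.75% held TGANTCA. A match of these letters is a description and not evidence of binding.

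Whether the higher genes belonged to macrophages was read from a list of 30 macrophage genes. Of these 17 were measured and 13 lay under 1 CPM in both libraries. By the rule of size 4 of the 17 were higher (Mmp12, Cd36, Adgre1 and Csf1r), none was lower and 13 were not called, where 0.166% of all measured genes were called on the higher side. Mmp12, Cd36 and Csf1r reached 1 CPM only at 16 h, so they were counted as measured through the library in which they were high, and the count of 4 is no support for the list. Csf1r, the receptor that keeps macrophages alive, had 15 reads at 8 h and 30 at 16 h, with 9 and 26 at no LPS and 20 h, and a fold of 2.07 (1.08 to 4.14). It overlaps Hmgxb3 on the opposite strand, which had 2730 and 2696 reads. By the 95% interval 5 of 17 were higher (Cybb in addition), 1 was lower and 11 were neither. Over all measured genes 5.39% were higher and 5.41% lower by this interval. The median log2 ratio of the 17 was 0.10, beside 0.00 over all measured genes. This count and this median rest on the same 17 genes, so they are no support for the list either. Of the 13 members under 1 CPM the interval put Fcer1g higher (12 and 26 reads), which lay just under the limit at 0.938 CPM, and Marco lower (25 and 10 reads), where 0.875% of all genes with a read under 1 CPM were higher and 0.84% lower.

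The most used macrophage genes did not follow. Cd68, a lysosomal glycoprotein, was lower, at 66.5 CPM at 8 h and 62.0 CPM at 16 h, a fold of 0.932 (0.873 to 0.995). Lyz2, which encodes lysozyme, had 659 and 680 reads and a fold of 1.07 (0.959 to 1.19). Mpeg1, a pore-forming protein of phagocytes, had 140 and 158 reads (1.17-fold, 0.926 to 1.48), and Cd14, the LPS co-receptor, had 276 and 312 reads (1.17-fold, 0.993 to 1.38). The mannose receptor gene Mrc1 stood at 0.886-fold (0.645 to 1.22), the integrin gene Itgax at 0.941-fold, the engulfment receptor gene Mertk at 0.953-fold, the protease gene Ctss at 0.943-fold, Laptm5 at 1.07-fold, Chil3 at 1.0-fold, the lipase gene Lpl at 1.07-fold and Pparg at 0.917-fold, each with an interval that held 1.

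Defining markers were at or near 0 in both libraries. C1qa had 5 and 2 reads at 8 h and 16 h, C1qb 5 and 7, C1qc 0 and 2, Itgam 0 and 4, Aif1 1 and 0, Trem2 3 and 1, and Spi1, the gene of PU.1, 7 and 11. Tyrobp, the signalling partner of many myeloid receptors, had 22 and 19 reads. The summed level of the 30 genes was 211 CPM at 8 h and 221 CPM at 16 h (1.05-fold, 1.01 to 1.08), beside 222 CPM in the library without LPS and 240.0 CPM in that of 20 h. Without Mmp12 and Cd36 the sum was 209.9 CPM at 8 h and 212 at 16 h (1.01-fold, 0.975 to 1.05), and without Cd68 it was 145 and 159 CPM (1.1-fold, 1.05 to 1.15). Without the 5 members higher by the 95% interval, a set chosen by its values, the sum was 206 and 205 CPM (0.993-fold, 0.957 to 1.03). A core of 15 identity genes within the list summed to 48.4 CPM at 8 h and 56.7 at 16 h (1.17-fold, 1.09 to 1.26), with 2 of 8 measured members higher by the rule of size. The core holds Adgre1, Csf1r, Cybb and Fcer1g, already named as higher, so its sum is no separate support. In bulk RNA, more cells of a type and more RNA of these genes per cell cannot be told apart, and the part of macrophages in the result was not tested.

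**Figure D2:**
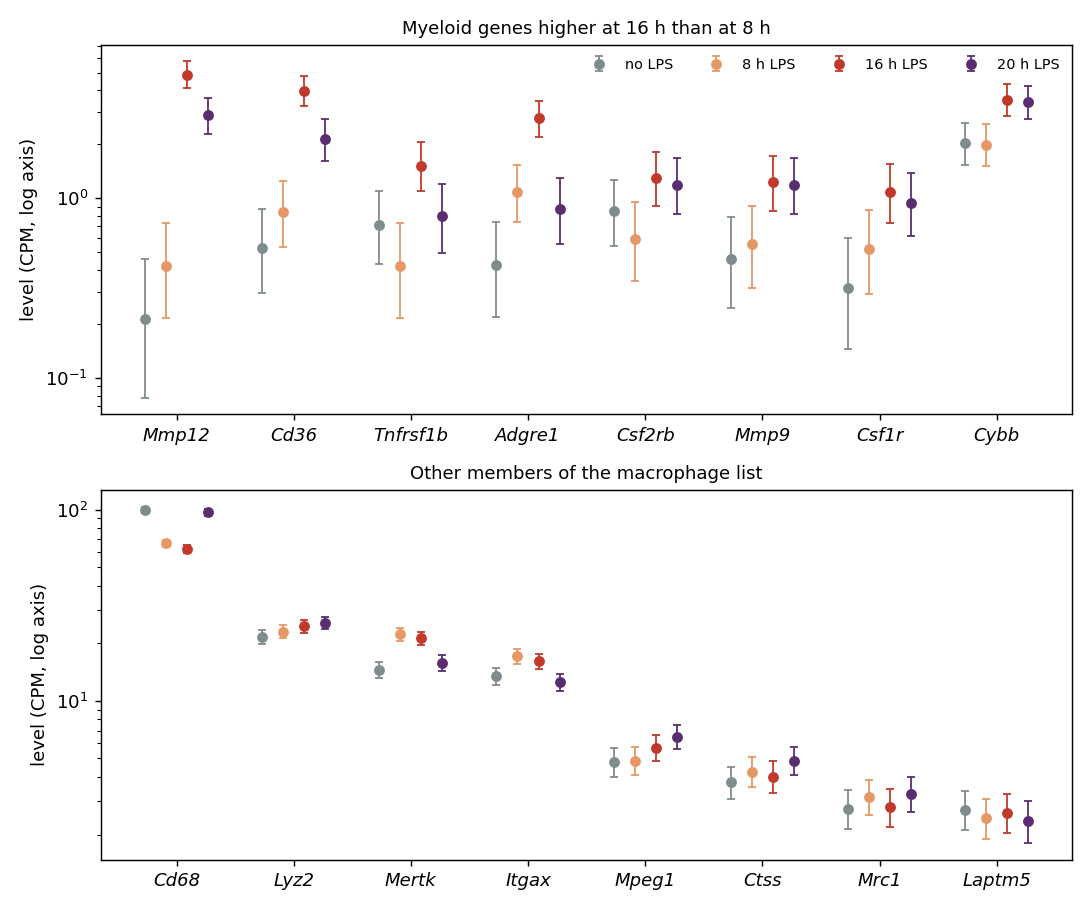
Levels (CPM, log axis) in the 4 libraries, 1 point per library with its exact 95% Poisson counting interval. Above, myeloid genes that were higher at 16 h than at 8 h, with Mmp12 at 4.87 and 0.418 CPM. Below, 8 other measured members of the macrophage list, where the points for 8 h and 16 h lie together and Cd68 is slightly lower at 16 h.

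Further genes on the higher side that are known from myeloid cells lay outside the list. Their naming as myeloid, and the groups in the next sentences, were chosen after their values were seen. Csf2rb, the shared beta chain of the receptors for GM-CSF, interleukin 3 and interleukin 5, had 17 reads at 8 h and 36 at 16 h (2.19-fold, 1.20 to 4.17). Mmp9, gelatinase B of neutrophils and macrophages, had 16 and 34 reads (2.20-fold, 1.18 to 4.27). It stood in a list of 27 other myeloid genes, of which 13 were measured. By the 95% interval Mmp9 alone of the 13 was higher, none was lower and 12 were neither, beside 5.39% higher over all measured genes. Their median log2 ratio was 0.03. The 27 genes summed to 1.002-fold (0.991 to 1.013), a sum that holds Spp1 at 1561 and 1554 CPM (0.996-fold). Most of the measured members of this list thus did not move with Mmp9. Clec4d, a C-type lectin receptor for mycobacterial glycolipid, had 43 and 75 reads (1.81-fold, 1.23 to 2.69), under the fold of 2.

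The list of Fc and C-type lectin receptors that holds Clec4d summed to 5.57 CPM at 8 h and 7.90 at 16 h (1.42-fold, 1.15 to 1.75). By the 95% interval 1 of its 2 measured members was higher (Clec4d), beside 5.39% of all measured genes. Of its 9 members under 1 CPM 2 were higher, Fcer1g and Fcgr3 (10 and 23 reads), beside 0.875% of all genes with a read under 1 CPM. None was lower. The sum holds Clec4d, Fcer1g and Fcgr3, and the list was chosen after values were seen, so the sum is no separate support. Partners of the other receptors and enzymes were mixed. Among oxidase subunits, Cyba stood at 0.910-fold (0.812 to 1.02), and Ncf1 and Ncf4 had at most 16 reads in either library. Among the colony-stimulating factors, the CSF1R ligand gene Csf1 was level at 225 and 226 CPM (1.0-fold, 0.970 to 1.04), while Il34, its other ligand, was lower at 22.1 and 18.9 CPM (0.855-fold, 0.760 to 0.961). In the TNF pathway, Tnfrsf1a, the broadly expressed TNF receptor 1, stood at 1.06-fold (0.993 to 1.14). Its adaptor gene Tradd was higher, at 16.8 and 20.9 CPM (1.25-fold, 1.1 to 1.41), and Tnf itself had 1 and 3 reads. Lysosomal and protease genes that macrophages use heavily, all 18 of which were measured, had none higher and 4 lower by the 95% interval, among them Cd63 at 0.944-fold (0.907 to 0.982). By the same interval 5.41% of all measured genes were lower, and 8.57% of those at 100 to 1000 CPM. In the list of lipid uptake genes Cd36 was the only one of 15 beyond its 95% interval, and among 14 measured metalloproteinase and inhibitor genes Mmp12 and Mmp9 were higher and Adam8 (0.892-fold) and Adamts1 (0.941-fold) lower. Over all measured genes 5.39% were higher by this interval. Cd36, Mmp12 and Mmp9 reached 1 CPM only at 16 h, so they were counted as measured through the library in which they were high.

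Lists of other cell types had few measured members beyond the 95% interval. No member of the monocyte and neutrophil list (14 genes) or of the T, B and NK cell list (18 genes) reached 1 CPM. Their summed levels were 1.43 and 1.62 CPM for the first and 0.418 and 0.686 CPM for the second, at 8 h and 16 h, and Plac8 of the first had 3 and 14 reads. None of 3 measured dendritic cell genes, 5 pan-leukocyte genes, 2 smooth muscle genes, 1 mesothelial gene and 1 gene of the mast cell, platelet and erythroid list had a 95% interval that excluded 1. In the fibroblast list 1 of 9 was higher, the PDGF receptor gene Pdgfra at 1.1-fold, and in the lung epithelial list 1 of 6, the homeobox gene Hopx, with 106 and 143 reads (1.40-fold, 1.08 to 1.81). Over all measured genes the same interval put 5.39% higher and 5.41% lower, so these single genes are not read as results about their lists. The median log2 ratio was 0.05 in the fibroblast and endothelial lists and 0.01 in the lung epithelial list. It was 0.22 in the dendritic cell list, 0.09 in the pan-leukocyte list and 0.07 in the smooth muscle list, each with few measured genes, beside 0.10 in the macrophage list. The single measured genes of the mesothelial list and of the mast cell, platelet and erythroid list stood at -0.32 and -0.39.

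**Figure D3:**
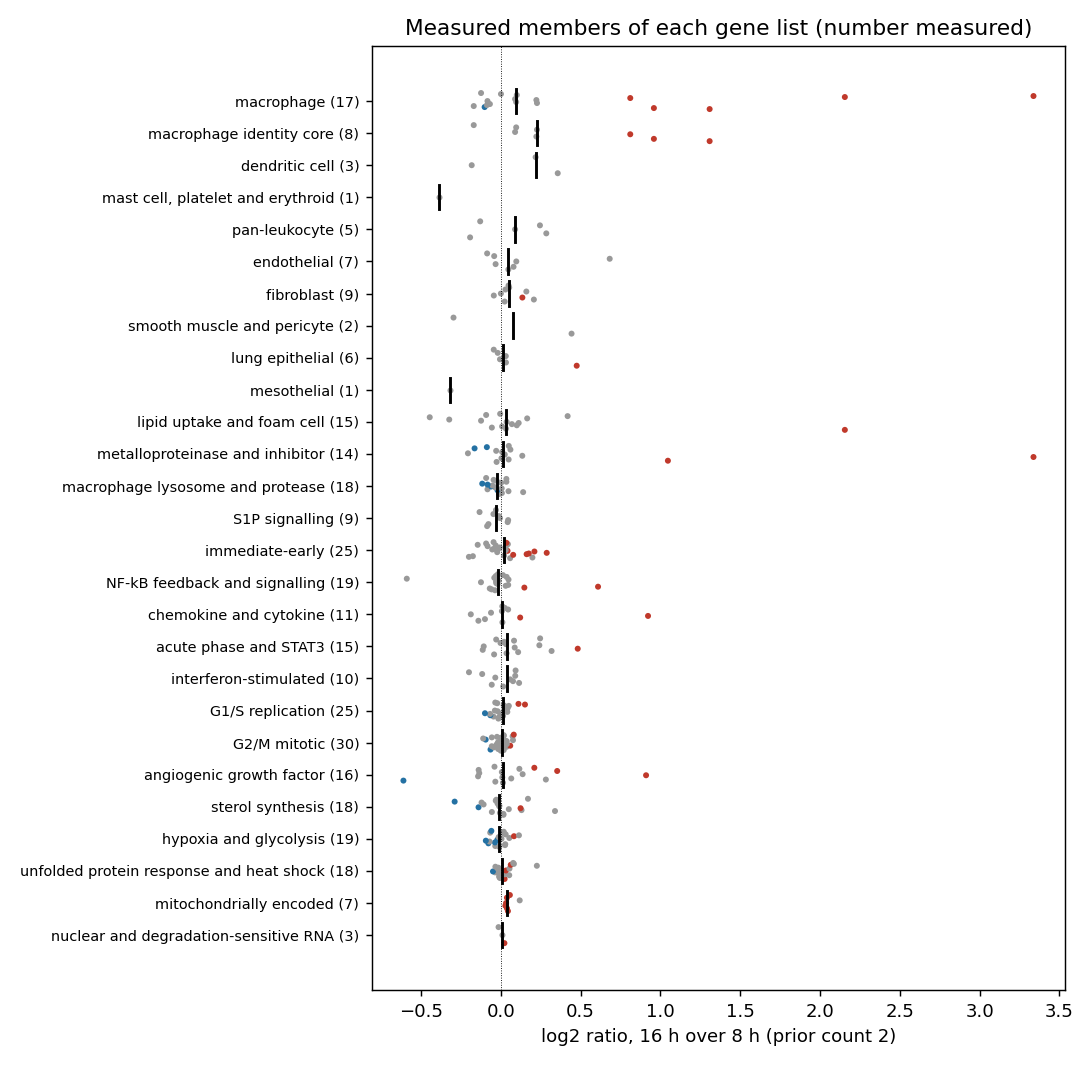
Log2 ratio of 16 h over 8 h for each measured member of 27 lists (the number measured in brackets), with members whose 95% interval excludes 1 in red (higher) or blue (lower) and the list median as a black bar. Medians lie close to 0 in the lists with many measured members, and Mmp12, Cd36 and Adgre1 extend the macrophage list to the right.

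The remaining named genes higher by the rule of size have no role in common that the labels give. They were the calpain gene Capn11 (11 and 28 reads, 2.64-fold, 1.27 to 5.87), the vesicle protein gene Syt11 (14 and 31), Mrps36 (14 and 28), the sperm protein gene Spa17 (17 and 33) and the Wnt pathway gene Frat1 (15 and 29). The other 7 of the 19 were model genes, clones and pseudogenes. On the lower side the named genes were the axonal kinesin gene Kif5a (30 reads at 8 h and 14 at 16 h, 0.484-fold, 0.237 to 0.940), Tmeff2 (44 and 21) and Neurl1a (48 and 23), and 6 of the 9 were model genes or pseudogenes. Tmeff2 and Neurl1a overlap other annotated genes, mostly noncoding, on both strands, and Spa17 overlaps Siae on the opposite strand. The labels do not state how the counting used strand.

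Differences in better expressed genes were small. Of the 144 genes beyond counting error, 133 had a mean of at least 10 CPM, and their folds ran from 0.733 to 1.52. The median fold was 1.13 on the higher side and 0.938 on the lower side. The share of genes past the 95% interval depends on depth: it was 4.44% higher and 2.98% lower in the 2655 genes under 10 CPM, 5.18% and 4.79% between 10 and 100 CPM, 6.44% and 8.57% between 100 and 1000 CPM, and 20.3% higher and 34.2% lower in the 79 genes of at least 1000 CPM. Counts in the lists below are to be read beside these shares at the levels of their members.

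The higher genes with at least 300 reads were led by Tpt1, a growth-related calcium-binding protein, at 9.40 CPM at 8 h and 14.3 at 16 h (1.52-fold, 1.30 to 1.78). The transcription factor gene Cebpb, which is induced in inflammation and drives myeloid programmes, followed at 15.7 and 22.0 CPM (1.40-fold, 1.24 to 1.58; Tmem189 overlaps it on the opposite strand), with 20.1 CPM at no LPS and 46.9 at 20 h. Model genes left aside, next stood Mtln, Spata5l1 and Comtd1, each at 1.32-fold, Romo1, a mitochondrial inner membrane protein, at 1.31-fold, the spliceosome gene Snrpf at 1.30-fold, the respiratory chain gene Cox5b at 1.29-fold, Id1, an inhibitor of differentiation induced by BMP signals, at 1.28-fold (1.11 to 1.47), and Pdcd10 at 1.28-fold. Rplp2 and Rplp1, which encode the acidic proteins of the ribosomal stalk, were at 1.25-fold and 1.12-fold, while the ribosomal protein genes Rpl14 and Rps19 were at 0.886-fold and 0.920-fold. Over 78 measured cytosolic ribosomal protein genes, 13 were higher and 9 lower by the 95% interval, with a median log2 ratio of 0.00. Tpt1 and ribosomal protein genes have many near-identical copies, and the treatment of reads shared between copies is not given, so their values are uncertain.

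The lower genes beyond counting error with at least 300 reads were led by Tmem69 (12.3 CPM at 8 h and 8.99 at 16 h, 0.733-fold, 0.621 to 0.865) and the zinc finger gene Zfp395 (0.739-fold), followed by the DNA glycosylase gene Mbd4 at 0.812-fold, Cbll1 at 0.850-fold, Tecpr2 at 0.864-fold, Rpl14, the lipid kinase gene Pikfyve at 0.887-fold, Plbd2 at 0.887-fold, the mitochondrial leucyl-tRNA synthetase gene Lars2 at 0.896-fold and Ocrl at 0.905-fold. Among genes with fewer reads, the homeobox gene Hoxa10 was lowest, with 142 reads at 8 h and 81 at 16 h (0.591-fold, 0.444 to 0.782), beside 100 and 95 at no LPS and 20 h. The kinase gene Map3k8 had 144 and 84 reads (0.604-fold, 0.456 to 0.797), beside 88 and 85. The collagen receptor gene Itga2 had 184 and 114 reads (0.642-fold), beside 177 and 172. In Hoxa10, Map3k8 and Itga2, 16 h was the lowest of the 4 libraries in CPM.

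**Figure D4:**
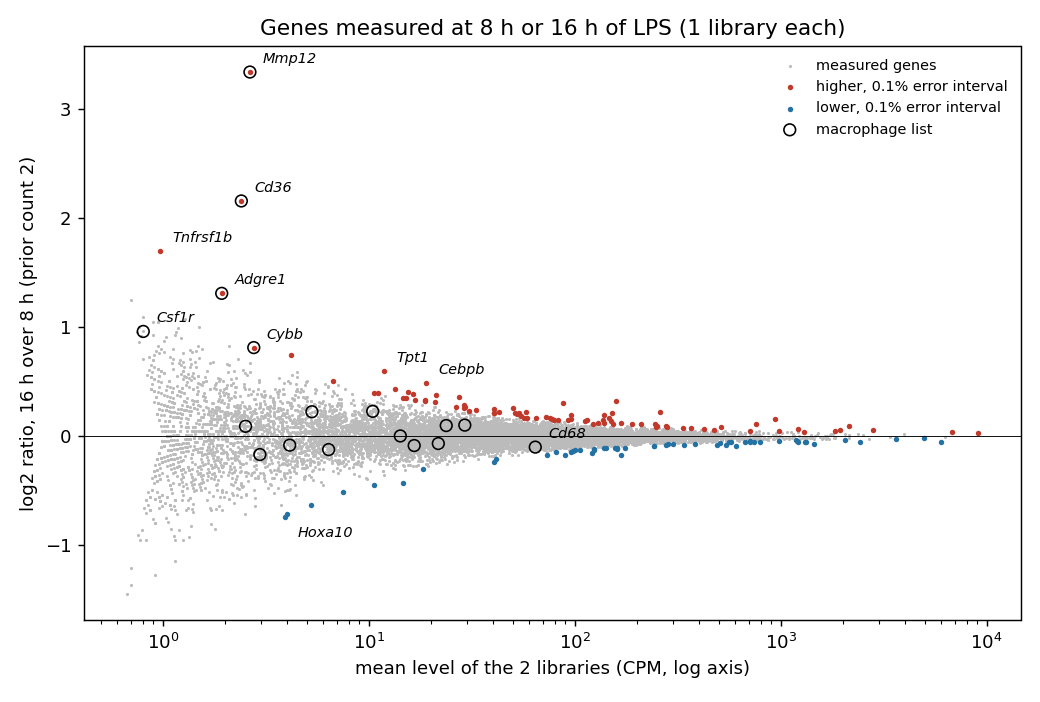
Log2 ratio of 16 h over 8 h (prior count 2) against the mean level of both libraries (CPM, log axis) for 11445 genes in grey, with the 88 higher and 56 lower genes beyond counting error in red and blue and the macrophage list circled. Mmp12, Cd36, Tnfrsf1b and Adgre1 stand apart at low levels, and the coloured genes above 10 CPM keep close to the line of no difference.

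Transcript length and base composition were then compared, since these were not used to choose the genes. The median length of the longest annotated transcript was 2072 bases in the 88 higher genes and 3722 in the 56 lower ones, beside 3413 over all measured genes. In the shortest of 5 equal length classes 43 were higher and 8 lower, and in the longest 6 were higher and 17 lower. Median GC content was 51.0% in the higher genes, 53.4% in the lower and 49.6% in all. Across all genes the shift was slight, from a median change of 0.639% in the shortest class to -0.451% in the longest. Examples with long transcripts, picked after their values were seen and so no support for this, were the filamin gene Flna, at 1354 and 1304 CPM (0.963-fold, 0.950 to 0.977), the myosin gene Myh9 (0.963-fold) and the dynein gene Dync1h1 (0.970-fold). What length stands for here was not tested.

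Measured genes that mark an LPS response differed mostly by small folds where they differed, with larger folds in the scarcer genes Cxcl2 and Nfkbie. Of 25 measured immediate-early genes 7 were higher by the 95% interval, none lower and 18 neither, beside 5.39% higher over all genes, and 3 were beyond counting error at the stricter rate, beside 0.769%. The median log2 ratio of the 25 was 0.02. The AP-1 subunit genes Jund, at 26.0 and 31.7 CPM (1.22-fold, 1.11 to 1.35), Junb (1.13-fold) and Jun (1.12-fold) and the early gene Ier2 (1.16-fold) were among them, while Egr1 stood at 57.8 and 60.1 CPM (1.04-fold, 0.972 to 1.12) and Klf2 at 0.963-fold (0.832 to 1.12). In the NF-kB list 2 of 19 were higher, the inhibitor genes Nfkbie (1.54-fold, 1.08 to 2.22) and Nfkbib (1.11-fold), and its feedback gene Tnfaip3 stood at 0.917-fold with an interval that held 1. In the chemokine and cytokine list 2 of 11 were higher, both ligands of the neutrophil receptor CXCR2: Cxcl2 with 22 and 42 reads (1.98-fold, 1.15 to 3.48) and Cxcl1 at 125 and 136 CPM (1.09-fold, 1.04 to 1.14). Of 15 acute phase and STAT3 genes Cebpb alone was higher, and Stat3 stood at 0.971-fold (0.914 to 1.03). None of 10 measured interferon-stimulated genes passed the 95% interval. Of the 20 members of that list under 1 CPM 1 was higher. The same held for 1 of 4 such members of the NF-kB list and 1 of 11 of the chemokine and cytokine list. None of these members was lower, and 0.875% of all genes with a read under 1 CPM were higher.

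S1P signalling genes, which are the subject of the sort, did not differ beyond counting error at 95%. Of 15 listed genes 9 were measured, with a median log2 ratio of -0.03. Sphk1, which makes S1P, stood at 6.27 and 6.46 CPM (1.03-fold, 0.833 to 1.27), and the exporter gene Spns2 at 9.06 and 9.02 CPM (0.996-fold, 0.834 to 1.19).

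Cell cycle lists had as many genes higher as lower. Among 30 G2/M genes 2 were higher (Bub1 and Ect2), 2 lower (Prc1 and Cdk1) and 26 neither, with a median log2 ratio of 0.01. Among 25 G1/S genes the cyclin genes Ccne1 (1.11-fold, 1.03 to 1.20) and Ccne2 (1.08-fold) were higher, and Cdc45 (0.933-fold) and Mcm7 (0.955-fold) lower. In the angiogenic list Fgf2 had 20 and 38 reads (1.97-fold, 1.12 to 3.57), Id1 and Notch1 were higher, and Vegfc, a growth factor of lymphatic vessels, was lower with 77 and 48 reads (0.646-fold, 0.441 to 0.938). Of 18 sterol synthesis genes 1 was higher, Cyp51 (1.09-fold), and 2 were lower, Mvk (0.817-fold, 0.705 to 0.948) and Sc5d (0.908-fold). Over all genes, the 95% interval put 5.18% higher and 4.79% lower at 10 to 100 CPM. The shares were 6.44% and 8.57% at 100 to 1000 CPM, and 20.3% and 34.2% at 1000 CPM or more. The next lists hold abundant genes, and their counts were not tested against these shares. In the hypoxia and glycolysis list 5 of 19 were lower, and the list summed to 0.989-fold (0.983 to 0.994). Among the 5 was the glycolytic enzyme gene Eno1 at 626 and 587 CPM (0.937-fold, 0.917 to 0.957), while Egln3 was higher (1.06-fold). In the list of unfolded protein response and heat shock genes 3 of 18 were higher, among them Hspa5, the ER chaperone BiP, at 8995 and 9143 CPM (1.02-fold), and Ddit3 was lower (0.967-fold). Mitochondrially encoded transcripts were higher in 6 of 7, with a sum at 1.03-fold, and those 6 by at most 1.04-fold (mt-Cytb, 1.03 to 1.05), and the nuclear RNA Malat1 stood at 1.02-fold (1.005 to 1.027).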

How the data were processed

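Whole-number counts of reads per gene were deposited by the authors for 4 libraries, made with STAR and featureCounts on mm10, per the submitters' processing notes. No version, annotation, strand or multi-mapping setting is given in sources used here. Titles tied columns to samples. Gene names and positions came from GENCODE M21 (GRCm38) by stable identifier, with 38872 of 39056 matched (99.5%).

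CPM used totals scaled by TMM over all 4 libraries (edgeR 4.0.16). Folds carry exact conditional binomial (Clopper-Pearson) 95% intervals, and log2 ratios a prior count of 2. Lengths and GC content are those of the longest GENCODE transcript. The interval code was tested on simulated data.

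Named genes were those called by the rule of size with at least 50 reads, the 10 highest and 10 lowest beyond counting error with at least 300 reads (model genes, clones and pseudogenes skipped), all measured macrophage list members, up to 4 members of each other list, and 12 genes of the study's subject. Further genes were named after their values were seen. Members and the 29 lists were chosen with earlier results of these data known, and 6 lists were added later. Alternatives were other scalings (total count, DESeq2 1.42.0), filters, folds, intervals, prior counts and thinning.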

Additional observations from a re-analysis of the deposited data

How the results depend on the processing

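Scaling by total count, by DESeq2 size factors or by TMM over both libraries alone left 17 to 19 genes higher, 9 or 10 lower, 141 to 143 beyond counting error and 4 macrophage genes higher, and thinning to the smaller total gave 15, 9, 142 and 3. With no count filter 92 genes were higher and 80 lower, and with a minimum of 10 CPM 0 were higher, 0 lower and 0 of the macrophage list higher, since all called genes were scarce. A fold threshold of 1.5 gave 54 higher and 38 lower. The 95% interval in place of the 0.1% error rate put 1236 genes beyond counting error, and the 0.1% error rate within the rule of size left 4 higher and 0 lower. Taking out the median shift of transcript length and GC content, an alternative chosen after seeing the data, gave 16 higher, 9 lower and 127 beyond counting error, of which 101 were among the 144. All 169 log2 ratios of genes named by rule under the 3 scalings and prior counts of 0.5 and 10 stayed within their 95% intervals. With 1 library per label no library could be left out. No paired analysis was possible because each label has 1 library. Depth limits genes under about 1 CPM, where 28 reads stood behind the scarcest called gene.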

Other observations

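The libraries labelled 20 h and no LPS share no library with the pair described above, and values for the same genes stand beside each other here as a description. Mmp12 was 13.6-fold higher at 20 h than with no LPS (95% counting interval 5.98 to 38.2), Cd36 4.01-fold (2.25 to 7.62), Csf1r 2.95-fold (1.34 to 7.15), Mmp9 2.59-fold (1.33 to 5.36) and Cybb 1.70-fold (1.21 to 2.41). The intervals of Adgre1 (2.04-fold, 0.982 to 4.48), Csf2rb (1.40-fold, 0.805 to 2.48) and Tnfrsf1b (1.12-fold, 0.585 to 2.17) held 1. Of the 88 genes higher at 16 h than at 8 h, 73 (83.0%) also stood above no LPS at 20 h, and of the 56 lower genes 38 stood below, beside 48.9% of all measured genes above. The 73 include small transcripts such as Cox5b, at 21.7 CPM with no LPS and 42.3 at 20 h, and Jund, at 41.0 and 129.6 CPM. Across 8476 genes of at least 10 CPM in all libraries the log2 ratios of both pairs had a Pearson r of 0.24 and a Spearman rho of 0.15. Genes are not independent replicates, and all 4 libraries share 1 scaling.

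Below 1 CPM, where 8453 further genes had a read in either library, 0.875% were higher at 16 h and 0.84% lower by the 95% interval. Genes named here were chosen after their values were seen. Immune genes on the higher side were the interferon regulator gene Irf7 (8 reads at 8 h and 27 at 16 h), the Toll-like receptor inhibitor gene Irak3 (1 and 13), the GM-CSF receptor gene Csf2ra (9 and 23), the Fc receptor gene Fcgr3 (10 and 23), the chemokine gene Ccl5 (9 and 21), Plac8 (3 and 14) and the MHC class II gene H2-Aa (2 and 11). Other genes of the same families did not share this: Clec4n had 20 and 12 reads, Csf2rb2 13 and 11, H2-Ab1 11 and 4, and Nfam1 15 and 9. Of these 8453 genes 3 lay beyond the interval with an error rate of 0.1%. The model gene 5430421F17Rik (7 reads at 8 h and 27 at 16 h) and the proteoglycan gene Spock2 (0 and 11) were higher, and the receptor guanylyl cyclase gene Gucy2g was lower (17 and 2).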
